A study of Mus musculus with 6 samples.

Results

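Transcripts of 37 lysosomal genes were followed in iNKT cells, the invariant natural killer T lymphocytes, of mice that carry a permanently acetylated PLZF protein. The genes were taken from a fixed list of lysosomal proteases, lipid and glycan hydrolases, membrane proteins and regulators, and 36 of the 37 had an array row that names that gene alone. The missing one is Glb1, the lysosomal beta-galactosidase, whose row also names Tmppe. The 36 genes stand among 22180 genes on the array. Arsb and Npc1 have several rows, of which the brightest on average stands for the gene.

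RNA of iNKT cells was hybridised to 6 Affymetrix whole-transcript arrays, 3 from wild-type (WT) mice and 3 from PLZF_ON mice. PLZF_ON mice express PLZF, the Zbtb16 product that directs iNKT cell development, in a form that stays acetylated, and no other allele or treatment is named for either genotype. The design text names replicates 1 and 2 of each genotype as the arrays analysed, so these 4 arrays give the main comparison (n = 2 arrays per group) and all 6 a second one (n = 3 per group). The sources used here do not give age, organ or isolation method, and the protocol speaks of frozen tissue. Nothing says whether replicates are separate mice, so the p-values cover the spread among these arrays alone, which may be technical. Values are log2 expression levels.

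Lysosomes are the acidic compartment in which cathepsins cut proteins and a series of hydrolases takes apart lipids and sugar chains that come in by endocytosis or autophagy. In antigen-presenting cells the same compartment trims glycolipids and loads them onto CD1d, the molecule that the iNKT cell receptor recognises. In iNKT cells themselves it shares its enzymes with the cytotoxic granules, which are a form of secretory lysosome. Many lysosomal genes are controlled together by the transcription factor TFEB, which binds a palindromic promoter element known as CLEAR, built on the letters GTCACGTG.

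The promoter windows of the lysosomal genes were searched for this element because the genes are known to share it, and those that carry it are shown before the expression values. A window of 250 bases before to 50 bases after the annotated gene start was held in the RefSeq promoter table (GRCm38.p6) for 33 of the 37 genes. The octamer GTCACGTG, or CACGTGAC on the other strand, lay in the windows of 11 of these 33 genes (33.3%), against 2.55% of all 27025 genes with a window. Among windows with at least as many CG pairs as the median window of the lysosomal genes, 4.77% of genes held it. The plain E-box core CACGTG, which the octamer contains, was present in 12 of the 33 genes (36.4%, against 8.09% of all genes), and the full palindromic decamer, GTCACGTG followed by AC, in 1, Cln3 (3.03%, against 0.37%). A match is a description of the letters and not a measured binding site.

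The 250 bases upstream of the start are given for Ctsd, Cln3 and Lamp1, since they are the octamer-carrying genes with the lowest p-values between the genotypes, and short stretches are given for a further protease and membrane protein and for 1 lipid and 1 glycan hydrolase. Capitals mark the octamer, or the decamer in Cln3, and every sequence is written 5' to 3' on the strand of the gene. The windows lie at chr7:142387828-142388077 on the minus strand for Ctsd, chr7:126583237-126583486 on the minus strand for Cln3 and chr8:13158911-13159160 on the plus strand for Lamp1. The 22-base stretches of Ctsa, Gla, Sgsh and Mcoln1 have their octamer beginning 14, 196, 29 and 73 bases upstream of the start.
Ctsd: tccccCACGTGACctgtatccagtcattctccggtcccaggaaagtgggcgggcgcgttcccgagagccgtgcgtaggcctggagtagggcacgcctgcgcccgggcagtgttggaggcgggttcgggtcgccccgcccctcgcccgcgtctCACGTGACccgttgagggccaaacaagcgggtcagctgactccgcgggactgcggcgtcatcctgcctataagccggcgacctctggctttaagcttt
Cln3: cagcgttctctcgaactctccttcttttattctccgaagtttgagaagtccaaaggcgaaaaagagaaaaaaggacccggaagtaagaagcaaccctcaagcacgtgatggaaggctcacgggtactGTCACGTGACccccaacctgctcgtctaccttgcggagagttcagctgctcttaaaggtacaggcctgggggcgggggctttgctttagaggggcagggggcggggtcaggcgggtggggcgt
Lamp1: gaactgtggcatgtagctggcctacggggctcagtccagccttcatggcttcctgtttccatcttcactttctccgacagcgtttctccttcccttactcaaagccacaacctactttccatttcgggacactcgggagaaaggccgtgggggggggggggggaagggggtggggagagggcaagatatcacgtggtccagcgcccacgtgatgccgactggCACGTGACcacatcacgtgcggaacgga
Ctsa: gcaaactGTCACGTGatgcaga
Gla: gatctcgGTCACGTGagcaact
Sgsh: tgccgtgCACGTGACcgtgggg
Mcoln1: cgcgcttGTCACGTGttcagtt
Ctsd, Ctsa and Mcoln1 held 2 octamers each, and the Lamp1 stretch holds 4 E-box cores, of which 1 belongs to the octamer. The window of Arsb held none of the 3 motifs searched.

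**Figure D1:**
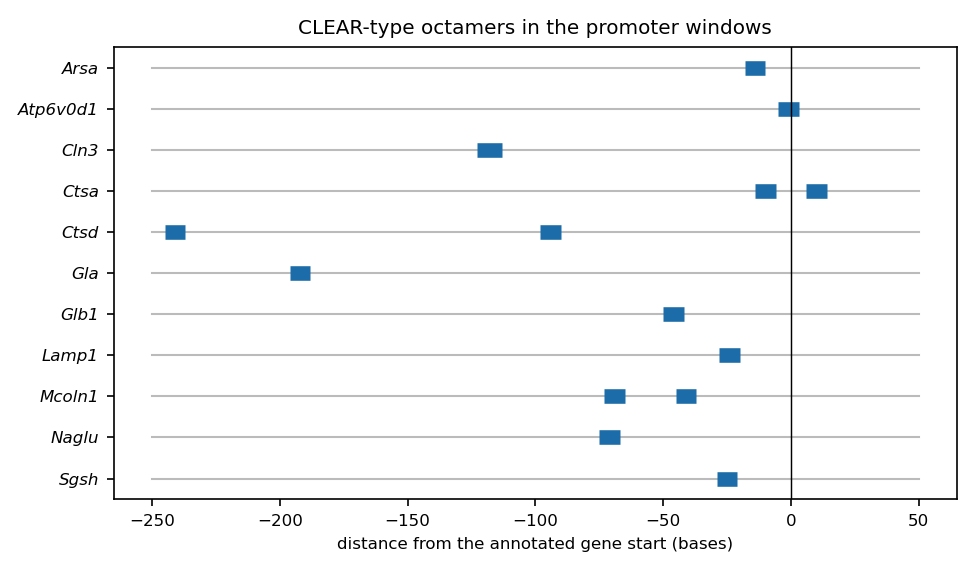
Position of the octamer GTCACGTG (either strand; the decamer in Cln3) in the 300-base promoter windows of the 11 lysosomal genes that hold it; the x axis is the distance in bases from the annotated gene start, grey lines are the windows and blue blocks the matches. Most blocks lie within 100 bases of the start, and the 2 blocks of Ctsd begin 245 and 98 bases upstream.

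Over the 4 arrays the lysosomal programme as a whole did not separate the genotypes, and no single gene passed the adjusted threshold. The median difference of the 36 genes, PLZF_ON minus WT, was 0.03 on the log2 scale, with 18 genes higher and 18 lower, and the median of all genes was -0.004. Of the 36 genes 0 passed a limma adjusted p of 0.05 over all 23521 rows, a threshold that 0.17% of rows passed, and the smallest adjusted p among them was 0.152. An unadjusted p under 0.05 was reached by 4 of them (11.1%), against 9.19% of all genes, which were Ctsd, Arsb and Cln3 with lower levels (background for lower 4.5%) and Lamp1 with a higher one (background for higher 4.68%). The 2 PLZF_ON arrays did not overlap the 2 WT arrays for 13 genes (36.1%), 7 higher and 6 lower, against 38.1% of all genes (18.8% higher and 19.3% lower). Among the 5640 genes at least as bright as the lower quartile of the lysosomal genes, a log2 level of 6.52, the shares were 14.7% for the unadjusted p and 45.4% for the overlap. The lysosomal shares lie near or below those of the background, so the counts say nothing particular about lysosomal genes.

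The intervals of these genes cover the spread among the arrays used, which may be technical. Whether they bound a difference between mice cannot be told, since nothing says that replicates are separate mice. For 33 of the 36 genes (91.7%) the limma 95% interval of the difference lay within a 2-fold change in either direction, and for 34 the difference itself was under 0.5. The exceptions to the interval were Ctsd, Arsb and the acid ceramidase gene Asah1, whose interval ran from -1.06 to 0.64. Among all genes 93.2% had an interval within 2-fold, so the share says nothing particular about lysosomal genes. With the replicate 3 arrays added the interval also reached beyond 2-fold for Ctsl, Hexa, Lipa, Npc1, Cln3 and Atp6v0d1, besides Ctsd, Arsb and Asah1. The 6-array interval ran from -1.51 to 0.82 for Lipa and from -1.42 to 0.48 for Npc1. That of Psap, from -0.71 to 0.19, stayed within 2-fold.

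**Figure D2:**
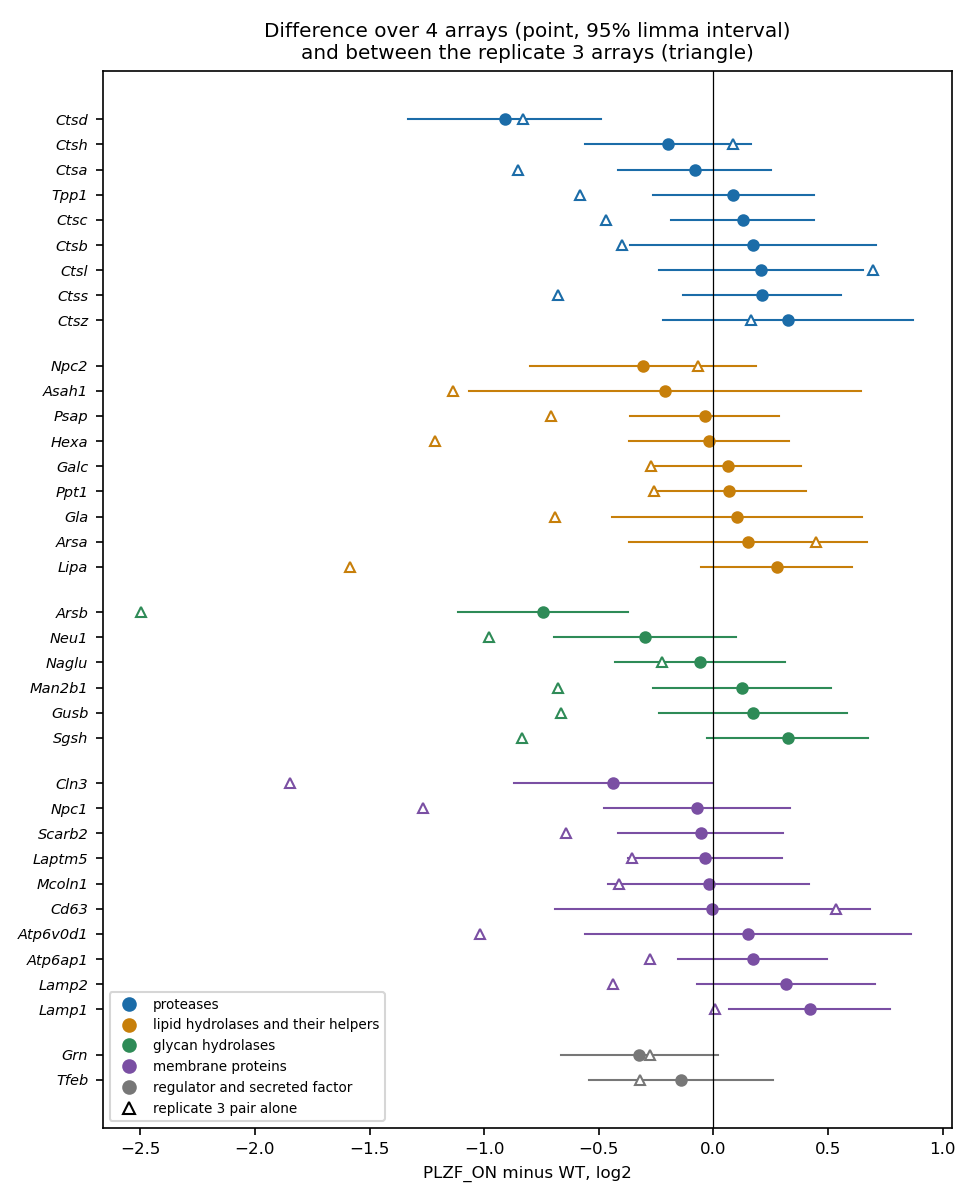
PLZF_ON minus WT on the log2 scale for the 36 lysosomal genes, grouped by role; points are differences over the 4 arrays with 95% limma intervals, and open triangles are the differences between the replicate 3 arrays alone. Most points lie near 0, with Ctsd at -0.91 and Arsb at -0.74 farthest to the left, and most triangles lie to the left of their points.

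Among the proteases, Ctsd, the aspartic protease cathepsin D, had the largest difference. The 3 WT arrays read 10.69, 10.57 and 10.26 and the 3 PLZF_ON arrays 9.92, 9.52 and 9.43, in the order of replicates 1 to 3. All 3 PLZF_ON arrays were lower than all 3 WT arrays. The 4-array difference was -0.91, or 1.88-fold lower (SE 0.17, unadjusted p = 0.0018, limma adjusted p = 0.152). Over 6 arrays it was -0.88 (SE 0.19, unadjusted p = 0.00205, limma adjusted p = 0.298). The NK cell marker Klrb1c was also lower on every PLZF_ON array, as given with the other markers, and its part in the Ctsd value was not tested.

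Cathepsin S and cathepsin L, cysteine proteases that degrade the invariant chain and process antigens, did not follow cathepsin D. Over the 4 arrays Ctss was at 8.96 and 8.95 in WT against 9.27 and 9.06 in PLZF_ON, a difference of 0.21 (SE 0.14, limma adjusted p = 0.759). In the replicate 3 arrays it was at 8.60 in WT and 7.92 in PLZF_ON, so the groups overlap once these are added. Ctsl was at 5.71, 5.80 and 6.18 in WT and 5.74, 6.19 and 6.88 in PLZF_ON, with a 4-array difference of 0.21 (SE 0.18, limma adjusted p = 0.839) and overlapping groups.

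The other 6 proteases were cathepsins A, B, C, H and Z and the tripeptidyl peptidase Tpp1. Their 4-array differences ran from -0.20 to 0.33, with limma adjusted p from 0.762 to 0.931. Ctsc, the peptidase that activates granzymes, was higher on both PLZF_ON arrays, by 0.13, and Ctsh was lower on both, at a difference of -0.20. Both had the opposite order in the replicate 3 arrays, with Ctsc at 8.74 in WT and 8.27 in PLZF_ON and Ctsh at 4.35 and 4.44. The Ctsh row stayed below a log2 level of 5.08, the 95th percentile of 1390 smell and pheromone receptor genes that serve here as a measure of background. Together with Galc, Arsa and Cd63 it makes 4 genes not shown to be above background, and the remaining 32 were above that level on all 4 arrays.

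Among the 9 measured genes of lipid breakdown no unadjusted p was under 0.05, against 9.19% of all genes. In so few genes that count says nothing particular about the group. Psap, the precursor of the saposins that lift glycolipids out of membranes and onto CD1d, was at 8.38 and 8.24 in WT and 8.27 and 8.28 in PLZF_ON over the 4 arrays. The PLZF_ON values lay between the WT values, and the difference was -0.04 (SE 0.13, limma adjusted p = 0.973), with a 95% interval from -0.36 to 0.29. Gla, the alpha-galactosidase that can remove the terminal sugar of galactosylceramide antigens, was at 6.42 and 6.86 in WT and 6.51 and 6.98 in PLZF_ON. The ranges overlap, with a difference of 0.10 (SE 0.22, limma adjusted p = 0.949) and an interval from -0.44 to 0.65.

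The other 7 genes of this group, Hexa, Galc, Asah1, Arsa, Lipa, Ppt1 and Npc2, differed by -0.31 to 0.28, with limma adjusted p from 0.634 to 0.984. The upper end was Lipa, lysosomal acid lipase, which frees cholesterol and fatty acids from lipoproteins. Over the 4 arrays it was at 7.74 and 7.83 in WT and 7.998 and 8.126 in PLZF_ON, and was the only gene of the group whose 4-array groups did not overlap. In PLZF_ON replicate 3 Lipa was at 6.04 against 7.63 in WT replicate 3, the opposite order. Npc2, which carries cholesterol to the membrane transporter Npc1, stood at the lower end with overlapping groups.

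Among the glycan hydrolases Arsb had the largest difference. It encodes arylsulfatase B, which removes sulfate from dermatan and chondroitin sulfate. Arsb read 9.64, 9.36 and 10.05 on the WT arrays, against 8.79, 8.73 and 7.55 on the PLZF_ON arrays. The groups did not overlap over 4 or 6 arrays. The 4-array difference was -0.74, or 1.67-fold lower (SE 0.15, unadjusted p = 0.00264, limma adjusted p = 0.18), and the 6-array difference -1.33 (SE 0.35, unadjusted p = 0.00552, limma adjusted p = 0.416). The second row of Arsb gave 9.46 and 9.16 in WT and 8.44 and 8.44 in PLZF_ON over the 4 arrays, a difference of -0.87 (SE 0.15, limma adjusted p = 0.127).

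Neu1, the lysosomal sialidase, was at 6.74, 6.67 and 7.13 in WT and 6.58, 6.23 and 6.15 in PLZF_ON, again without overlap on 6 arrays. Its difference was -0.30 over 4 arrays (SE 0.16, limma adjusted p = 0.682) and -0.53 over 6 (SE 0.20, unadjusted p = 0.0282, limma adjusted p = 0.756). Sgsh, a heparan sulfatase, went the other way over 4 arrays, with 6.21 and 6.11 in WT and 6.59 and 6.37 in PLZF_ON (difference 0.32, SE 0.14, limma adjusted p = 0.583), but was at 5.16 in PLZF_ON replicate 3. For the glucuronidase Gusb, the mannosidase Man2b1 and the glucosaminidase Naglu the 4-array groups overlapped and the differences were 0.17, 0.12 and -0.06. Asah1, Ctsc, Ctsh, Lipa, Npc2, Neu1, Sgsh and, further on, Laptm5 were chosen for mention after their values were seen.

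The membrane proteins held both directions. Lamp1, the major glycoprotein of the lysosomal membrane and a surface mark of degranulation, was at 7.94 and 8.15 in WT and 8.41 and 8.52 in PLZF_ON over the 4 arrays, without overlap. The difference was 0.42, or 1.34-fold higher (SE 0.14, unadjusted p = 0.0264, limma adjusted p = 0.431). In the replicate 3 arrays Lamp1 was at 7.81 in both genotypes, and over 6 arrays the difference was 0.28 (SE 0.22, limma adjusted p = 0.941). Its relative Lamp2, which also serves chaperone-mediated autophagy, was at 7.46 and 7.52 in WT and 7.97 and 7.64 in PLZF_ON, a difference of 0.32 (SE 0.16, limma adjusted p = 0.648). Lamp2 was then at 7.22 in WT and 6.78 in PLZF_ON replicate 3.

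Cln3, a lysosomal membrane protein whose loss causes juvenile Batten disease, was lower. It stood at 8.46, 8.20 and 8.63 in WT and 8.06, 7.72 and 6.79 in PLZF_ON, with no overlap on 4 or 6 arrays. The 4-array difference was -0.44, or 1.35-fold lower (SE 0.18, unadjusted p = 0.0475, limma adjusted p = 0.524), and the 6-array difference was -0.91 (SE 0.32, unadjusted p = 0.0221, limma adjusted p = 0.711). In the gene table Cln3 overlaps Apobr and Mir7059, Arsb overlaps Mir5624, and several of the other lysosomal genes overlap another gene too. Signal from an overlapping transcript was not tested for any of them. Npc1, the cholesterol exporter, was at 6.999 and 6.855 in WT and 6.683 and 7.028 in PLZF_ON, with overlapping groups and a difference of -0.07 (SE 0.17, limma adjusted p = 0.955). Its other, dimmer row gave -0.38 (SE 0.17, limma adjusted p = 0.593).

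For the other 6 membrane proteins the differences were small, from -0.06 to 0.17, with limma adjusted p from 0.809 to 0.999. They were the tetraspanin Cd63, the calcium channel Mcoln1, the proton pump parts Atp6ap1 and Atp6v0d1, the glucocerebrosidase receptor Scarb2 and Laptm5, which promotes the degradation of the T cell receptor zeta chain. Laptm5 was at 10.60 and 10.44 in WT and 10.43 and 10.53 in PLZF_ON, the groups overlapping.

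The regulator and the secreted factor were both on the lower side. Tfeb itself was at 5.68, 5.36 and 5.54 in WT and 5.46, 5.29 and 5.21 in PLZF_ON, with a 4-array difference of -0.14 (SE 0.16, limma adjusted p = 0.888) and overlapping groups. Grn, the precursor of progranulin, a secreted protein that returns to lysosomes and supports cathepsin D, was at 7.08, 7.27 and 7.10 in WT and 6.81, 6.90 and 6.82 in PLZF_ON. Its groups did not overlap on 4 or 6 arrays, with a difference of -0.32 over 4 arrays (SE 0.14, limma adjusted p = 0.566) and -0.31 over 6 (SE 0.14, limma adjusted p = 0.906).

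**Figure D3:**
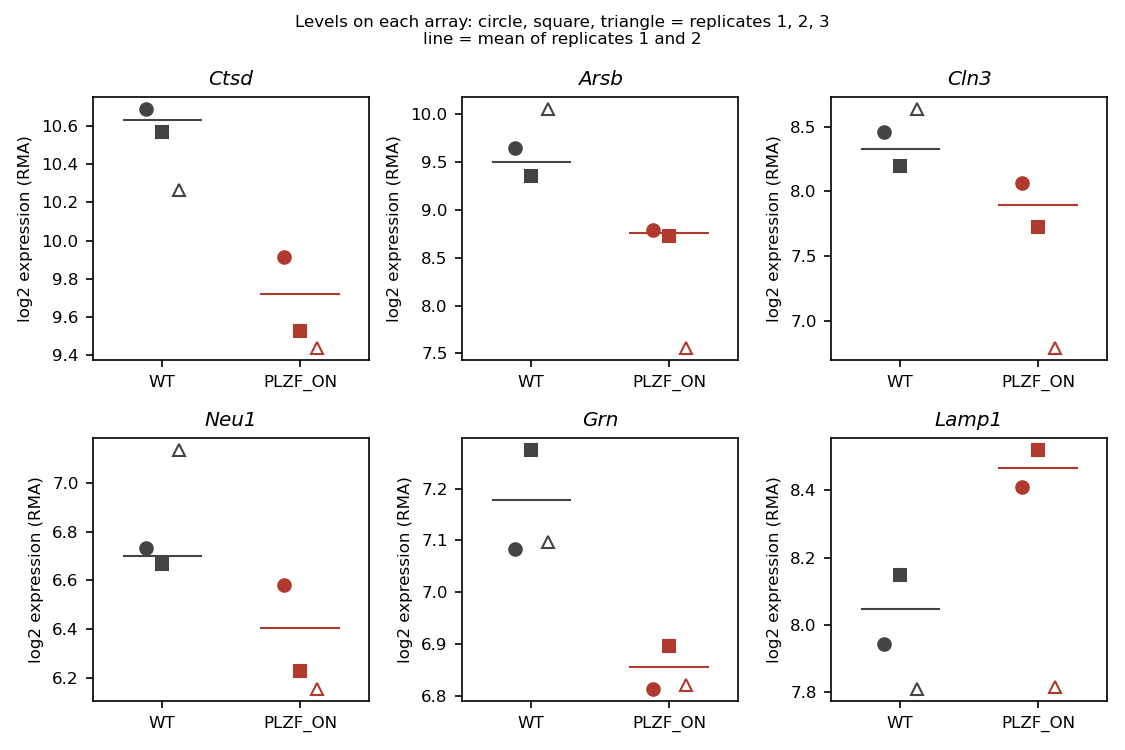
Log2 expression on each of the 6 arrays for 6 lysosomal genes, WT in grey and PLZF_ON in red; circles, squares and triangles are replicates 1, 2 and 3 and lines are means of replicates 1 and 2. Ctsd, Arsb, Cln3, Neu1 and Grn are lower on every PLZF_ON array than on every WT array, while Lamp1 is higher on PLZF_ON replicates 1 and 2 and at 7.81 in both replicate 3 arrays.

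The octamer in the promoter did not sort the genes by direction. Of the 10 measured genes that hold it, 5 were higher and 5 lower over the 4 arrays, with a median difference of 0.04, beside a median of 0.07 for the 22 measured genes whose window lacks it. Those 10 include Ctsd and Cln3, which were lower, and Lamp1, which was higher.

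Leaving out 1 of the 4 arrays leaves a single array in a group, which is then assumed to vary like the other group, so these values describe the dependence on single arrays and are no replicate check. Ctsd and Arsb kept an unadjusted p under 0.05 without any of the 4 arrays in turn, with differences from -1.11 to -0.71 and from -0.89 to -0.60. Lamp1 did not keep it without WT replicate 1, PLZF_ON replicate 1 or PLZF_ON replicate 2, where its p was as high as 0.142 and its difference as low as 0.32. Cln3 did not keep it without WT replicate 1 or PLZF_ON replicate 2 (p up to 0.229), and without PLZF_ON replicate 2 its difference was -0.27.

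Further lysosome genes outside this list were also measured on the 4 arrays. Of 82 measured, 46 were higher and 36 lower (median 0.03), and 0 passed over all rows (smallest limma adjusted p = 0.115). An unadjusted p under 0.05 was reached by 7 higher and 4 lower genes of the 82, against background shares of 4.68% and 4.5% of all genes. The groups did not overlap for 18 higher and 17 lower of the 82, against 18.8% and 19.3% of all genes. The smallest p belonged to Pla2g15, a lysosomal phospholipase that modifies CD1d-presented lipids and was listed with the proteases. It was at 6.40 and 6.71 in WT and 7.53 and 7.45 in PLZF_ON, 0.94 or 1.92-fold higher (SE 0.16, limma adjusted p = 0.115), and at 6.36 and 6.53 in the replicate 3 arrays. Cstb, an inhibitor of cathepsins, was 0.57 higher (SE 0.14, limma adjusted p = 0.257), and Ctsw, a cathepsin of cytotoxic lymphocytes, 1.43-fold lower at a difference of -0.52 (SE 0.15, limma adjusted p = 0.345).

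Among the 15 measured further hydrolases, Gaa, the glycogen-degrading glucosidase, had a difference of -0.51, Aga 0.58 and the acid phosphatase Acp5 0.43 (limma adjusted p = 0.342, 0.372 and 0.42). None of the 13 proton pump subunits had an unadjusted p under 0.05, against 9.19% of all genes, which says little in so few genes. The 3 with the smallest p, Atp6v1g1, Atp6v1d and Atp6ap2, differed by 0.26, 0.26 and 0.28. In the mannose 6-phosphate sorting list (8 measured) Igf2r, the receptor that delivers hydrolases, differed by 0.43, Gnptg by -0.53 and Gga3 by -0.20, and 1 had an unadjusted p under 0.05 (9.19% of all genes). In the 14 further membrane proteins none did, with Abcb9 at -0.44, Pip4p1 at -0.33 and Slc17a5 at -0.15.

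In the list of TFEB relatives and nutrient sensors (16 measured) 2 genes were higher and 1 lower at an unadjusted p under 0.05, against 4.68% and 4.5% of all genes. Fnip1, the partner of folliculin that restrains TFEB through the Rag GTPases, was at 5.79 and 6.19 in WT and 6.59 and 6.99 in PLZF_ON, 1.75-fold higher (difference 0.81, SE 0.21, limma adjusted p = 0.268). Mitf differed by 0.44, with both group means below the receptor gene level, and the arginine sensor Slc38a9 by -0.36. For lipid antigen presentation, Cd1d1 differed by -0.15, Cd1d2 by -0.06 and B2m by -0.07, with limma adjusted p of 0.853 or more.

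PLZF_ON replicate 3 stood apart from the other arrays, and it moved most of the lysosomal genes. Its correlation with the others across rows was 0.941 to 0.944, against 0.972 to 0.987 among the other 5, and the SD of its values was 1.79 against 1.97 to 2.01. Against the mean of WT replicates 1 and 2 the median of the 36 genes was -0.55 on that array, with 30 genes lower, and between -0.09 and 0.03 on the other 5. Genes at least as bright as the lower quartile of the lysosomal genes behaved alike there: in the replicate 3 arrays the median difference of 5640 such genes was -0.44, with 78% lower, beside -0.52 and 83.3% lower for the lysosomal genes. In bulk samples fewer cells of a type and less RNA per cell cannot be told apart.

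**Figure D4:**
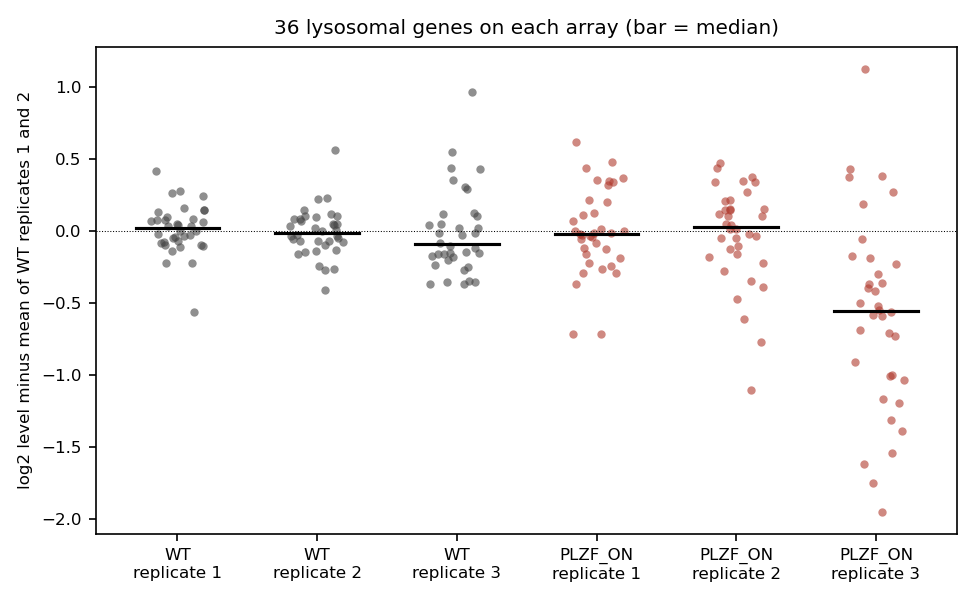
Log2 level of each of the 36 lysosomal genes on each array minus its mean over WT replicates 1 and 2 (one point per gene, black bars are medians, horizontal scatter is random). The medians lie between -0.09 and 0.03 on 5 arrays and at -0.55 on PLZF_ON replicate 3.

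Over 6 arrays 29 of the 36 lysosomal genes were lower and 7 higher, with a median of -0.14, against a median of 0.03 for all genes and -0.14 for the 5640 brighter genes. Again 0 passed over all rows (smallest limma adjusted p = 0.298, against 0.0935% of rows passing), and 4 had an unadjusted p under 0.05 (11.1%), all lower, against 5.64% of genes in either direction (3.33% lower and 2.3% higher) and 9.98% of the brighter genes. The groups did not overlap for 5 genes, all lower (13.9%), against 11.7% of all genes in either direction (6.27% lower and 5.47% higher) and 16.9% of the brighter ones, 13.6% lower. These 5 were Ctsd, Arsb, Neu1, Cln3 and Grn. Groups that are apart over all 6 arrays are apart over the 4 arrays by construction, so their 4-array separation adds nothing. Without PLZF_ON replicate 3 the median was 0.05 and the groups did not overlap for 13 genes, 7 higher and 6 lower.

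Markers of most other cell types were near background on the 4 arrays, and several were higher on PLZF_ON replicate 3. All 6 measured iNKT and T cell markers (Cd3d, Cd3e, Cd3g, Cd5, Zap70 and Zbtb16) were above the receptor gene level on all 4 arrays, with a summed linear level of 8733 to 9480 in WT and 9144 to 9637 in PLZF_ON, and 5774 on PLZF_ON replicate 3. Of 10 macrophage and monocyte markers 1, C1qa, was above that level on all 4 arrays. Their sum was 232 to 253 in WT and 245 to 253 in PLZF_ON over the 4 arrays, and 261 and 370 in the replicate 3 arrays of WT and PLZF_ON. Between the replicate 3 arrays Lyz2 differed by 2.51, and the other markers of this list by -0.17 (Itgam) to 0.57 (Csf1r). On PLZF_ON replicate 3 only Lyz2 (6.58) and C1qa (5.84, and 5.80 in WT replicate 3) lay above that array's own receptor gene level of 5.66. The 7 dendritic cell markers summed to 169 to 192 and 171 to 211, and of 4 B cell markers none was above the level on all 4 arrays. None of 5 neutrophil markers was above it on any of the 4 arrays (sum 73.2 to 81.3 in WT and 70.3 to 71.5 in PLZF_ON). On PLZF_ON replicate 3 their sum was 392, with S100a8 at 7.29 against 3.09 in WT replicate 3. S100a9 was at 7.199 on PLZF_ON replicate 3, and Camp, at 5.342, lay below that array's own receptor gene level of 5.66. Between the replicate 3 arrays Ly6g and Ltf differed by -0.196 and 0.007, so not all 5 neutrophil markers were raised. Immature thymocyte markers (4 measured) summed to 116 to 124 in WT and 111 to 133 in PLZF_ON, and to 469 on PLZF_ON replicate 3. Of these, Cd8b1 and Ptcra were above the receptor gene level on all 4 arrays. On PLZF_ON replicate 3 Dntt (7.19), Cd8b1 (7.77) and Ptcra (6.39) lay above that array's level and Rag2 (4.39) below. The 3 epithelial markers summed to 95.7 to 102 on the other 5 arrays and 182 on PLZF_ON replicate 3, and the 4 hepatocyte markers to 88.8 to 101 and 141. On PLZF_ON replicate 3 Alb (5.215), Ttr (5.445) and Serpina1a (3.29) lay below that array's receptor gene level and Apoa1 (5.668) about at it. Of the epithelial markers Krt8 (6.43) and Krt18 (6.20) lay above it and Epcam (4.51) below. Krt8 was also above the receptor gene level on all 4 arrays. No red cell marker was measured. Whether other cells had a part in the lysosomal values of that array was not tested. Across the genotypes, 3 NK cell markers summed to 1288, 1177 and 864 in WT and 677, 199 and 572 in PLZF_ON, without overlap. Most of that was Klrb1c, the NK1.1 antigen, which mature iNKT cells carry too (4-array difference -2.19, limma adjusted p = 0.157). The exception was PLZF_ON replicate 3, where Ncr1 was at 8.25 and Klrb1c at 7.78. The other NK cell markers, Ncr1 and Eomes, overlapped between the genotypes, with 4-array differences of -0.02 and 0.32 (limma adjusted p = 0.999 and 0.946). Both were higher in PLZF_ON in replicate 1 and lower in replicate 2, and in replicate 3 they differed by 0.77 and -0.23. The part of Klrb1c-bearing cells in the lysosomal differences was not tested.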

How the data were processed

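Total RNA of iNKT cells was labelled with biotin and hybridised to Affymetrix whole-transcript arrays, per the labels' protocols, which also speak of frozen tissue. The authors deposited log2 expression values, and their processing notes name RMA, with no version given. RMA aims at a common distribution of the arrays and compresses changes of dim genes. The deposited values did not share one. PLZF_ON replicate 3 had an SD of 1.79 and a median of 5.01, against 1.97 to 2.01 and 4.88 to 4.92 on the others. The sources used here do not give the authors' annotation or genome build.

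Of 41345 rows, 23521 with exactly 1 gene symbol in the platform annotation were tested, and 1814 with several symbols and 16010 not listed there were left out. The deposited values were fitted as they stand with limma 3.58.1 in R 4.3.3 (genotype only, two-sided, Benjamini-Hochberg over all 23521 rows at 0.05), over 4 and over 6 arrays, and no row was left out for low signal. Standard errors and 95% intervals are the moderated ones, and the number of arrays limits their precision. Scripts were tested on simulated data. Levels per array were given for genes with an unadjusted p under 0.05 and groups without overlap and for a fixed set (Tfeb, Lamp1, Lamp2, Ctsd, Ctsl, Ctss, Psap, Gla, Npc1 and Grn), and other lysosome genes were named by the 3 smallest p per list. The members and lists, and the receptor genes used as background, were chosen with earlier results of these data known. As alternatives the fits were repeated without each array in turn, with the replicate number as a block, with array weights or a variance trend, on all deposited rows or the brighter ones, on gene means, and after median centring or a further quantile normalization. Promoter sequences are from RefSeq (GRCm38.p6), which was used for names and sequence only, and figures were drawn with matplotlib 3.10.9.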

Additional observations from a re-analysis of the deposited data

How the results depend on the processing

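None of the lysosomal genes fitted passed under the 12 alternatives over 4 arrays or the 9 over 6 arrays, with 36 genes in each fit except that on brighter rows alone, which held 32. The closest were Ctsd with a variance trend (limma adjusted p = 0.0884) over 4 arrays and array weights over 6 arrays (smallest adjusted p = 0.0532). The median difference ranged from -0.02 to 0.05 over 4 arrays, and from -0.25 to 0.05 over 6, where it was above 0 without PLZF_ON replicate 3 and with array weights (0.02). Leaving out 1 array of the 4 gave 21 to 27 genes without overlap, since fewer arrays overlap less often, and 5 to 13 over 6 arrays. Over all rows, the count passing over 4 arrays was 0 to 106 when 1 array was left out, 101 with the replicate block and 0 with all deposited rows, against 40. Over 6 arrays it was 0 to 107 when 1 array was left out, 5 with median centring and 259 with array weights, against 22, and the cause was not tested. The replicate numbers are not given as a pairing. Deviations of same-numbered arrays correlated at 0.09, 0.25 and 0.24 over 6 arrays, and PLZF_ON replicate 1 correlated better with WT replicate 2 (0.12) than with its own number. With the replicate block 0 lysosomal genes passed (smallest adjusted p = 0.104 over 4 arrays and 0.179 over 6), and 4 had an unadjusted p under 0.05 over 4 arrays, as without it.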

Other observations

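The replicate 3 arrays, taken alone as a pair without a test, differed most in Arsb (-2.50), Cln3 (-1.85), Lipa (-1.59), Npc1 (-1.27) and Hexa (-1.21), all lower in PLZF_ON. In 6 of the 36 genes PLZF_ON was higher, which were Ctsl (0.69), Cd63 (0.54), Arsa (0.45), Ctsz (0.17), Ctsh (0.09) and Lamp1 (0.01). By role, the medians of this pair were -0.47 for proteases, -0.69 for lipid hydrolases, -0.76 for glycan hydrolases and -0.42 for membrane proteins, while the 4-array medians were 0.13, 0.06, 0.03 and -0.01.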
